A study of Mus musculus with 12 samples.

Results

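The comparison covers 6 of the 12 mouse liver libraries of the series, the 3 of genotype Mcl1 KO, called Mcl1Δhep below, and the 3 WT libraries, all with an intact Sting1 gene. They were chosen by the genotype and title on the labels and not by any measured value. Mcl1Δhep mice carry floxed Mcl1 alleles and a Cre recombinase under the albumin promoter, which is active in hepatocytes. The study reports that MCL1 staining in these livers was almost confined to nonparenchymal cells, those other than hepatocytes. The livers were from mice of 2 months of age per the study's text, and the remaining 6 libraries, from Sting1-deficient mice with and without the Mcl1 deletion, entered the model with them. The sex of each mouse is not on the labels, and the study's methods state that sex was distributed alike over the groups. Total RNA of whole liver was sequenced, 1 library per liver, and reads were counted per gene. The question was which liver programs besides the interferon and macrophage genes differ when hepatocytes lack Mcl1, and the genes were therefore grouped into 57 lists for hepatocyte metabolism, duct, matrix, cell cycle, stress, and cell types.

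MCL1 is an antiapoptotic protein of the BCL2 family that holds BAK and BAX in check at the mitochondrial outer membrane. Hepatocytes that lack it die at a raised rate, and the liver replaces lost hepatocytes by division of the remaining ones. Under lasting injury a liver can also lay down collagen made by activated stellate cells, form new bile duct cells known as the ductular reaction, and lose part of its metabolic gene program.

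The 6 libraries held 29124473 to 45266387 counts on genes. Mcl1 (ENSMUSG00000038612, GRCm39 chromosome 3, 95566026 to 95570487) stood at 90.2, 102, and 104 CPM (counts per 1000000, scaled with edgeR's TMM factors) in WT replicates 1, 2, and 3 and at 27.9, 34.0, and 24.98 CPM in Mcl1Δhep replicates 1, 2, and 3. The hepatocyte origin of the RNA was visible in the 48 measured genes of secreted plasma proteins, which took 20.4 to 26.3% of counts in WT and 23.0 to 28.1% in Mcl1Δhep libraries. Y-linked genes summed to 147 and 142 CPM in WT replicates 2 and 3 and to at most 0.201 CPM in WT replicate 1 and the 3 Mcl1Δhep libraries. Sex therefore moves with genotype, and each result is given from a fit without a covariate and from a second fit with Y-linked expression as a covariate. Among the other 6 libraries, replicate 1 of the mice that lack both Mcl1 and Sting1 also expressed Y-linked genes (147 CPM), so the covariate is set by that genotype and by WT, on the assumption that sex acts alike in all genotypes. The even distribution of sex that the study's methods state is not seen in the Y-linked levels of these 6 libraries. Mcl1Δhep replicate 3 held 1.22% of its counts on 11 markers of pancreatic acinar cells, against at most 0.0031% in the other 5 libraries, and 0.286% on 19 markers of skeletal muscle, against at most 0.0040%. Small structured RNAs took 0.171 to 0.367% of counts in WT libraries and 0.282, 2.36, and 1.35% in Mcl1Δhep replicates 1, 2, and 3. A fit with their share as covariate is called the small RNA fit below.

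Of 15070 genes tested, 1629 (10.8%) were higher and 1421 (9.43%) lower in Mcl1Δhep livers at an adjusted p under 0.05, 20.2% in both directions together. With the Y-linked covariate 893 (5.93%) were higher and 638 (4.23%) lower, 10.2% together, and 818 (5.43%) were higher and 493 (3.27%) lower in both fits, 8.7% together. The small RNA fit called 338 (2.24%) higher and 69 (0.458%) lower, 2.7% together, and a fit with both covariates 187 (1.24%) higher and 25 (0.166%) lower, 1.41% together. Below, both fits are those without and with the Y-linked covariate, and counts with 1 library left out come from the fit without covariate unless another is named. These shares are the background against which the members of each list are read. Fits with 1 library left out have their own background. It was 2503 higher and 2729 lower of 15357 genes without Mcl1Δhep replicate 1, and 821 and 417 of 15304 without Mcl1Δhep replicate 2. It was 729 and 504 of 15427 without WT replicate 2, and 979 and 617 of 15463 without WT replicate 3. In 5024 (33.3%) of the 15070 tested genes the groups did not overlap, 2441 with all Mcl1Δhep libraries above and 2583 with all below. The median log2 fold change of all tested genes, Mcl1Δhep minus WT, was −0.0049 without the covariate and −0.010 with it. In bulk RNA fewer cells of a type and less RNA per cell cannot be told apart, which holds for every list.

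**Figure D1:**
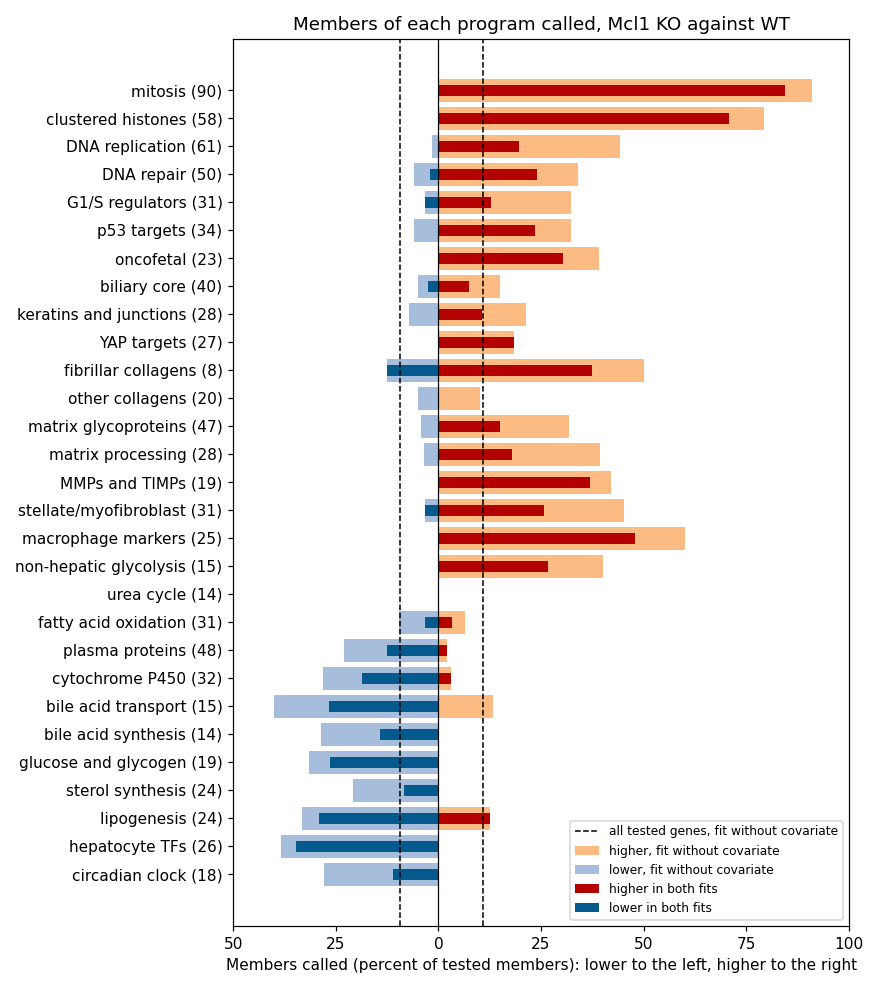
Members called in each of 29 gene lists, as a percentage of the tested members (number in parentheses), higher in Mcl1Δhep livers to the right and lower to the left. Pale bars are the fit without covariate, dark bars the members called the same way in both fits, and dashed lines the share of all tested genes (10.8% higher, 9.43% lower). Mitosis reached 82 of 90 members higher and the urea cycle had no member called, whereas hepatocyte transcription factors reached 10 of 26 lower.

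Genes of mitosis formed the most uniform change. Of 90 tested members, 82 were higher and 0 lower in Mcl1Δhep livers, 76 of them in both fits. In 85 all 3 Mcl1Δhep libraries lay above all 3 WT libraries, as in 2441 of all 15070 tested genes. The median log2 fold change of the list was 2.77, and 3.13 with the Y-linked covariate. Cdc20, the activator of the anaphase-promoting complex that starts chromosome separation, had 1.16, 0.504, and 0.429 CPM in WT livers and 32.3, 20.3, and 12.6 CPM in Mcl1Δhep livers. Its log2 fold change of 4.83 ± 0.77 (SE, n = 3 per group, edgeR adjusted p = 0.0028) was the largest in the list and among the 5 largest rises of abundant protein-coding genes. Ccnb2, a cyclin of the mitotic kinase, was at 0.501, 0.534, and 0.627 CPM in WT livers and at 14.01, 11.01, and 5.34 CPM in Mcl1Δhep livers. Plk1, a kinase that drives entry into and passage through mitosis, was at 0.237, 0.297, and 0.231 CPM against 6.14, 4.53, and 3.16 CPM. Mki67, which encodes the proliferation antigen Ki67, had 3.93, 3.32, and 4.39 CPM in WT livers and 57.7, 20.01, and 7.50 CPM in Mcl1Δhep livers. The groups overlapped for none of these 4 genes, and in each of them Mcl1Δhep replicate 1 was the highest library and replicate 3 the lowest of the 3. The median of the list followed the same order, at 2.40, 1.94, and 1.36 log2 units above the WT mean in replicates 1, 2, and 3.

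Promoters of mitotic genes are shown because the members moved together and because many are known to carry the cell cycle homology region (CHR), a short element bound by the MuvB complexes that repress these genes in resting cells and activate them in dividing cells, and CCAAT boxes, bound by NF-Y. Each window runs from 250 bases before to 50 bases after the start of the Ensembl canonical transcript of GENCODE vM39 in GRCm39, written 5′ to 3′ on the strand of the gene. Capitals mark matches to the CHR (TTTGAA or TTCGAA) and to CCAAT, each searched on both strands. The windows are Ccnb2 (chr9:70328825-70329124, minus strand), Plk1 (chr7:121758396-121758695, plus strand), and Cdc20 (chr4:118294561-118294860, minus strand).
Ccnb2: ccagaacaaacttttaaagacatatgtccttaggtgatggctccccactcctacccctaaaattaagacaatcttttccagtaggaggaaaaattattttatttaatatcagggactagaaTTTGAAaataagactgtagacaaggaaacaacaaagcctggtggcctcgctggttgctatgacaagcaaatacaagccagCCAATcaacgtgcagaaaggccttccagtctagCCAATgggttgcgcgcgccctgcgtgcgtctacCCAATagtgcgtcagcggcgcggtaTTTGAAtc
Plk1: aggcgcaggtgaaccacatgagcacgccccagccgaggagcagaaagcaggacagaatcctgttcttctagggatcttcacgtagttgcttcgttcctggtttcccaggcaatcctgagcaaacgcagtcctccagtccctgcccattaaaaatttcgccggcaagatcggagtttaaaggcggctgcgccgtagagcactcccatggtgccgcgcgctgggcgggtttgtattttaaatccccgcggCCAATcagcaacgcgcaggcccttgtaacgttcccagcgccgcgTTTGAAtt
Cdc20: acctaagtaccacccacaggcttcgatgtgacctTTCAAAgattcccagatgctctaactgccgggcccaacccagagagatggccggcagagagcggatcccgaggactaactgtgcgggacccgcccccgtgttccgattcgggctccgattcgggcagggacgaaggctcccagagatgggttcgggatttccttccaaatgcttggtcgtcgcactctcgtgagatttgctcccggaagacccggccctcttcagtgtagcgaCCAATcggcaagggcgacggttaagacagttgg
In Ccnb2 the CHR matched at +43 and −129 from the start, with 3 CCAAT boxes at −49, −16, and +18. In Plk1 it matched at +43 with a CCAAT box at −2, and in Cdc20 at −216 with a CCAAT box at +18. No CHR match shared bases with a CCAAT match in these windows. Among the 90 mitosis promoters 45 held a CHR and 38 (42.2%) held one within 50 bases of the start, whereas 15.9% and 3.54% of the promoters of all 13664 tested protein-coding genes did. CCAAT was found in 54 of the 90 mitosis promoters and in 39.5% of all. These are matches of letters, without a measurement of binding.

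Genes of DNA replication had fewer calls. Of 61 tested members 27 were higher and 1 lower, 12 higher in both fits, with a median log2 fold change of 0.76. The number higher was 16 without WT replicate 2, 17 without WT replicate 3 or Mcl1Δhep replicate 2, and 3 in the small RNA fit. Mcm5, a subunit of the helicase that opens the replication fork, had 3.96, 5.16, and 4.49 CPM in WT and 16.9, 16.9, and 15.8 CPM in Mcl1Δhep livers, so that the replicates of each group lay close together and the groups far apart (log2 fold change 1.85 ± 0.33, edgeR adjusted p = 0.0047). Mcm2 and Mcm6 of the same ring rose by 1.73 and 1.38 on the log2 scale, Mcm6 only in the fit without the covariate. Gins2, which joins the helicase at the fork, had the largest log2 fold change past the test in both fits, 2.74. Pcna, the sliding clamp of the polymerases, rose by 0.66 without the covariate and not past the test with it (edgeR adjusted p = 0.15). The member that fell, Mcm10, had 27.5 CPM in WT replicate 1, 160 and 164 CPM in WT replicates 2 and 3, and 18.1 to 46.5 CPM in Mcl1Δhep livers. Its low and high libraries thus follow the Y-linked genes, and with the covariate its log2 fold change was −0.31 (edgeR adjusted p = 0.69). The promoter of Mcm5 (chr8:75835890-75836189, plus strand) is shown for the E2F motif of replication genes, searched as TTTCCCGC, TTTCGCGC, TTTGCCGC, or TTTGGCGC on both strands, with the matches in capitals.
Mcm5: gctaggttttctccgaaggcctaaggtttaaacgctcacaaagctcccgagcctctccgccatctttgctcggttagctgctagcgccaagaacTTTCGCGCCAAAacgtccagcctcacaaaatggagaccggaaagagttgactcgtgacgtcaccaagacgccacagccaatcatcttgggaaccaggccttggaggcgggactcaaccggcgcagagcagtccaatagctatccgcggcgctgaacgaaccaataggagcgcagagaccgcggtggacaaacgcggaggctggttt
The capitals hold 2 matches on opposite strands that share bases, starting at −156 and −152. Of the 61 replication promoters 16 (26.2%) held an E2F match, compared with 3.75% of all promoters and 7.78% of the mitosis promoters. A CHR was present in 8.2% of the replication promoters.

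**Figure D2:**
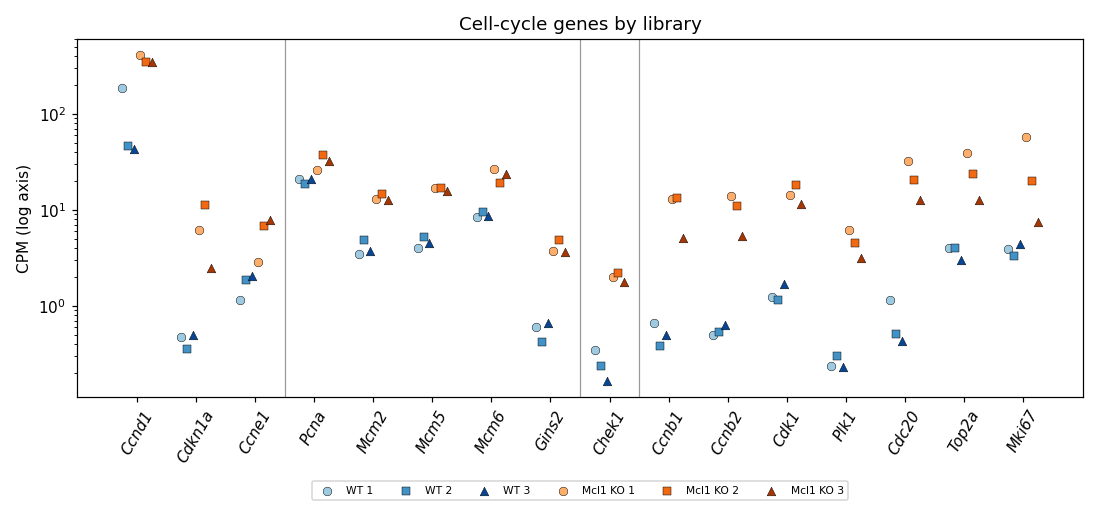
CPM on a log axis of 16 cell-cycle genes in each of the 6 libraries, with G1 regulators, replication genes, the repair gene Chek1, and mitotic genes separated by vertical lines. Mcm5 lay at 15.8 to 16.9 CPM in all Mcl1Δhep libraries, whereas the mitotic genes on the right were highest in Mcl1Δhep replicate 1 or 2 and lowest in replicate 3.

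Regulators of G1 and the S phase entry gave 10 higher and 1 lower of 31 members, 4 and 1 in both fits. Without Mcl1Δhep replicate 2, WT replicate 2, or WT replicate 3 it was 5 that were higher, and in the small RNA fit 3. Ccnd1, the cyclin D1 that carries growth signals into the cycle, had 184, 46.6, and 43.3 CPM in WT and 408, 345, and 344 CPM in Mcl1Δhep livers. The WT library without Y-linked expression was thus between the other WT libraries and the Mcl1Δhep libraries, and the log2 fold change was 2.0 without and 1.22 with the covariate, past the test in both fits. Cdkn1a, the p53-induced inhibitor p21, rose alongside, from 0.475, 0.356, and 0.495 CPM to 6.23, 11.2, and 2.47 CPM (log2 fold change 3.75 ± 0.62, edgeR adjusted p = 0.0031). Rbl2, the pocket protein p130 of resting cells, fell by 0.93 on the log2 scale. Of 34 p53 target genes 11 were higher and 2 lower, 8 higher and 0 lower in both fits, among them Btg2 (log2 fold change 2.30), Gdf15 (1.78), and Eda2r (1.46). Of 50 DNA repair genes 17 were higher and 3 lower. Those higher included Chek1, the checkpoint kinase of stalled forks (2.74), and H2ax, the histone that is phosphorylated at breaks (1.51), and both passed in both fits. The p53 targets had 7 higher without WT replicate 2 and 4 in the small RNA fit, and the repair genes 11 without WT replicate 3 and 8 in the small RNA fit.

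Clustered histone genes, whose transcripts are made in S phase and mostly end in a stem-loop instead of a poly(A) tail, were higher for 46 of 58 tested members and lower for 0, 41 of them in both fits, with a median log2 fold change of 1.86. They took 0.0359 to 0.0408% of counts in WT libraries and 0.0614, 0.120, and 0.101% in Mcl1Δhep replicates 1, 2, and 3. H1f1, a linker histone, was at 2.24, 2.28, and 2.64 CPM in WT and at 10.9, 30.0, and 23.9 CPM in Mcl1Δhep livers. The order of the Mcl1Δhep libraries here, with replicate 2 highest and replicate 1 lowest, is that of the small structured RNAs and not that of the mitotic genes. The small RNA fit called 25 histone genes and 64 mitosis genes higher, and the fit with both covariates 9 and 57. Ncapd2, a condensin subunit among the 12 largest rises, had 35.2, 396, and 277 CPM in Mcl1Δhep livers and 11.1, 16.4, and 33.1 CPM in WT livers, an order that also follows the small structured RNAs, whose part in its reads was not tested.

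Among the BCL2 family itself, Mcl1 fell by 1.77 ± 0.16 on the log2 scale (edgeR adjusted p = 0.00061), and by 1.85 with the covariate. Of the 18 members tested 5 were higher and 2 lower. Without Mcl1Δhep replicate 1 there were 8 higher, in a fit that called 2503 of all 15357 genes higher. There were 3 higher without WT replicate 3, 2 without WT replicate 1, 1 without Mcl1Δhep replicate 2 or WT replicate 2, and 0 in the small RNA fit. The other fall was of Bcl2l2, the antiapoptotic BCL-W, by 0.51 without the covariate. Bax, the effector that MCL1 restrains, had 6.86, 8.66, and 10.6 CPM in WT and 10.9, 23.1, and 17.1 CPM in Mcl1Δhep livers, a rise of 0.96 that passed without the covariate and missed the threshold with it (edgeR adjusted p = 0.051). Bcl2a1b, an antiapoptotic member of blood cells with near-identical copies whose reads can be split, rose by 2.41.

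The defining markers of bile duct cells were not called and overlapped between the groups. Krt7, a keratin of ducts, had 1.09 to 1.56 CPM in WT and 0.683 to 1.96 CPM in Mcl1Δhep livers. Krt19, the second duct keratin, had 1.25 to 1.85 CPM against 1.61 to 2.75 CPM, and Sox9, the transcription factor of duct precursors, 1.42 to 2.24 CPM against 1.72 to 1.80 CPM. Epcam, a surface marker of ductal cells, had 1.35 to 3.32 CPM and 1.93 to 3.89 CPM. Spp1 overlapped as well, and the edgeR adjusted p of these 5 genes was 0.25 or higher in the fit without and 0.31 or higher in the fit with the covariate. Of 40 members of the biliary list 6 were higher and 2 lower, 3 and 1 in both fits, shares of the size of the background, with a median log2 fold change of 0.18, and −0.01 with the covariate. Without WT replicate 1 there were 9 higher, without WT replicate 2 or 3 there were 2, and in the small RNA fit also 2. The 46 listed genes summed to 0.322 to 0.377% of counts in WT and 0.330 to 0.345% in Mcl1Δhep libraries. A list of 15 Notch pathway genes had 2 higher, among them the ligand Jag2 (log2 fold change 2.46), and 1 lower.

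The 6 biliary list members that rose were Dmbt1, Tff2, Krt23, Tspan8, Muc1, and Elf3. Krt23, a stress keratin of liver, had 1.35, 0.712, and 1.19 CPM in WT and 13.8, 4.56, and 3.29 CPM in Mcl1Δhep livers, without overlap (log2 fold change 2.68, past the test in both fits). Dmbt1, a secreted scavenger receptor of mucosal epithelia, had 0 CPM in all 3 WT libraries and 18.4, 29.6, and 243 CPM in Mcl1Δhep libraries. Its highest library, as that of Tff2, a trefoil peptide of mucus-secreting epithelia with 0.434, 0.367, and 33.7 CPM, is the one with pancreatic and muscle transcripts, and the part of those in both genes was not tested. In the other 2 Mcl1Δhep libraries Dmbt1 was still above every WT library, whereas Tff2 was at 0.434 CPM or less against up to 0.185 CPM in WT.

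Keratins of hepatocytes rose. Krt8 had 212, 198, and 237 CPM in WT and 430, 814, and 387 CPM in Mcl1Δhep livers, and its partner Krt18 had 164, 168, and 188 CPM against 420, 650, and 295 CPM. The log2 fold changes were 1.33 and 1.39 without and 1.58 and 1.74 with the covariate, and both genes passed in both fits. Ly6d, a small surface protein of squamous and lymphoid precursor cells, showed the second largest rise of abundant protein-coding genes, from 0.633, 1.04, and 1.12 CPM to 28.7, 177, and 43.2 CPM (log2 fold change 6.41 ± 0.66, edgeR adjusted p = 0.00097). Of the 28 genes of keratins and junctions 6 were higher and 2 lower, and of 27 YAP target genes 5 were higher, all 5 in both fits. Among these 5 were Birc5 (log2 fold change 3.88) and Anln and Ect2, which also serve cell division, and Axl (0.83), a receptor tyrosine kinase. Of the keratins and junctions 1 was higher without Mcl1Δhep replicate 2, WT replicate 2, or WT replicate 3 and in the small RNA fit. Without Mcl1Δhep replicate 1, 6 of the YAP targets were lower, in a fit that called 2729 of all 15357 genes lower.

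Oncofetal genes, expressed in fetal liver or liver tumors, were higher for 9 of 23 tested members and lower for 0, 7 of them in both fits. H19, an imprinted noncoding RNA of fetal liver, had 1.504, 0.267, and 0.066 CPM in WT and 55.5, 23.1, and 37.3 CPM in Mcl1Δhep livers (log2 fold change 5.81, and 4.86 with the covariate). Igf2bp3, a fetal RNA-binding protein, rose by 3.29, Akr1c18 by 3.76, and Golm1, a Golgi protein used as a serum marker of liver disease, by 1.73. Afp, the fetal albumin-like protein, had 1.11, 1.30, and 1.75 CPM in WT and 3.17, 5.54, and 2.40 CPM in Mcl1Δhep livers. The groups did not overlap in these 5 genes, and all of them passed in both fits.

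**Figure D3:**
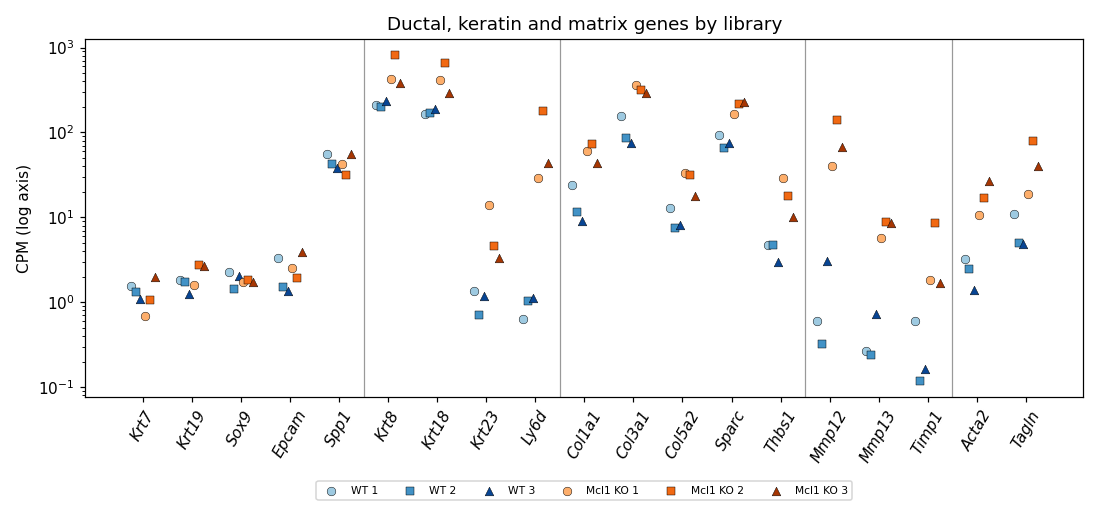
CPM on a log axis of 19 ductal, keratin, matrix, protease, and contractile genes in each of the 6 libraries. Duct markers on the left (Krt7 to Spp1) overlapped between the groups, whereas Krt8, Krt18, Krt23, and Ly6d and the matrix genes to their right were higher in all 3 Mcl1Δhep libraries.

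Matrix genes were higher above the background share in the lists of fibrillar collagens, glycoproteins, processing enzymes, and metalloproteinases. Of 8 fibrillar collagen genes 4 were higher and 1 lower, 3 and 1 in both fits, with a median log2 fold change of 1.07. Col1a1, a chain of type I collagen, had 24.1, 11.7, and 9.02 CPM in WT and 61.3, 72.7, and 44.0 CPM in Mcl1Δhep livers (log2 fold change 1.99 ± 0.43, edgeR adjusted p = 0.010). Col3a1 of type III collagen had 158, 86.9, and 75.4 CPM against 360, 319, and 288 CPM. In both genes WT replicate 1, without Y-linked expression, was the highest WT library and still below all Mcl1Δhep libraries, and the log2 fold changes with the covariate were 2.0 and 1.60. Col1a2 rose by 1.35 but missed the threshold with the covariate (edgeR adjusted p = 0.056). The chain that fell was Col27a1, at 3.17, 7.38, and 6.14 CPM in WT and 0.980 to 1.41 CPM in Mcl1Δhep livers. The small RNA fit called 1 fibrillar collagen gene. Of 20 other collagen genes 2 were higher and 1 lower, 0 in both fits, with 5 higher without WT replicate 1 and 0 without Mcl1Δhep replicate 2, WT replicate 2, or WT replicate 3.

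Matrix glycoproteins gave 15 higher and 2 lower of 47 members, 7 higher in both fits, with a median log2 fold change of 0.54. Without WT replicate 2 or 3 there were 6 higher, without Mcl1Δhep replicate 2 there were 7, and the small RNA fit called 3 and that with both covariates 1. Thbs1, a matricellular protein that activates latent TGF-beta, rose from 4.70, 4.78, and 2.97 CPM to 28.7, 17.9, and 10.2 CPM (log2 fold change 2.18). Sparc, a collagen-binding protein, rose from 65.3 to 94.0 CPM to 165 to 229 CPM (1.38), and both passed in both fits. Fibronectin, Fn1, which hepatocytes secrete, did not rise. It had 1830, 1505, and 1526 CPM in WT and 1485, 789, and 701 CPM in Mcl1Δhep livers (log2 fold change −0.71, edgeR adjusted p = 0.098). Lama3 had 1.003 CPM in WT replicate 1, 10.9 and 14.6 CPM in WT replicates 2 and 3, and 0.734 to 1.18 CPM in Mcl1Δhep livers, a fall of 3.04 that followed the Y-linked genes (with the covariate −0.55, edgeR adjusted p = 0.45). Among 21 proteoglycans 6 were higher and 2 lower, and the 1 that was higher in both fits was Vcan, the versican of provisional matrix (log2 fold change 2.84). The 6 became 2 without WT replicate 2 or 3, 1 without Mcl1Δhep replicate 2, and 0 in the small RNA fit.

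Of 28 genes for the processing and cross-linking of matrix 11 were higher and 1 lower, 5 higher in both fits. It was 5 without Mcl1Δhep replicate 2 or WT replicate 2, 6 without WT replicate 3, and 4 in the small RNA fit. Serpinh1, the collagen chaperone HSP47, had 34.4, 16.2, and 16.8 CPM in WT and 42.1, 100, and 56.8 CPM in Mcl1Δhep livers (log2 fold change 1.56). Tgm2, a transglutaminase that cross-links matrix, rose by 0.98, and Adamts12, a secreted protease, by 2.17. Of 19 matrix metalloproteinases and their inhibitors 8 were higher and 0 lower, 7 of them in both fits. Leaving out WT replicate 3 gave 5, and the small RNA fit 2. Mmp12, the macrophage elastase, had 0.607, 0.326, and 3.04 CPM in WT and 40.4, 138, and 66.7 CPM in Mcl1Δhep livers (log2 fold change 5.92 ± 0.75, edgeR adjusted p = 0.0017). Mmp13, an interstitial collagenase, had 0.264, 0.237, and 0.727 CPM against 5.67, 8.90, and 8.47 CPM. Timp1, the inhibitor that marks fibrosis, had 0.607, 0.119, and 0.165 CPM against 1.84, 8.47, and 1.71 CPM. The groups did not overlap in any of these genes.

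Of 31 markers of stellate cells and myofibroblasts 14 were higher and 1 lower, 8 and 1 in both fits, with a median log2 fold change of 0.72. Acta2, the smooth muscle actin of activated stellate cells, had 3.22, 2.43, and 1.39 CPM in WT and 10.6, 16.9, and 26.5 CPM in Mcl1Δhep livers (log2 fold change 2.90 ± 0.55, edgeR adjusted p = 0.0044). Tagln, an actin-binding protein of contractile cells, had 10.8, 4.95, and 4.89 CPM against 18.6, 78.5, and 39.8 CPM. Rgs5 of pericytes rose with little spread, from 42.7 to 49.3 CPM to 97.5 to 107 CPM. Des and Tpm2, which skeletal muscle also makes, had 69.9 and 118 CPM in Mcl1Δhep replicate 3 but 9.45 and 6.73 CPM or less in replicates 1 and 2. Without that replicate Tpm2 had a log2 fold change of 0.47 (edgeR adjusted p = 0.56), and 9 markers were higher and 1 lower. There were 6 higher without WT replicate 2, 8 without WT replicate 3, and 2 in the small RNA fit. The 32 listed markers summed to 0.0709 to 0.104% of counts in WT and 0.107 to 0.137% in Mcl1Δhep libraries, highest in replicate 3. Sums in Mcl1Δhep replicates 2 and 3 were below all WT libraries for glycoproteins (0.4445 and 0.437%) and other collagens (0.123 and 0.103%). In all Mcl1Δhep libraries they were above all WT libraries for fibrillar collagens, proteoglycans, processing enzymes, and metalloproteinases with their inhibitors. Of 27 ligands and targets of fibrogenic signals 5 were higher and 1 lower, with 1 higher without WT replicate 2, 3 without WT replicate 3, and 2 in the small RNA fit. Tgfb1 itself rose by 0.73 without the covariate and missed the threshold with it (edgeR adjusted p = 0.072).

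**Figure D4:**
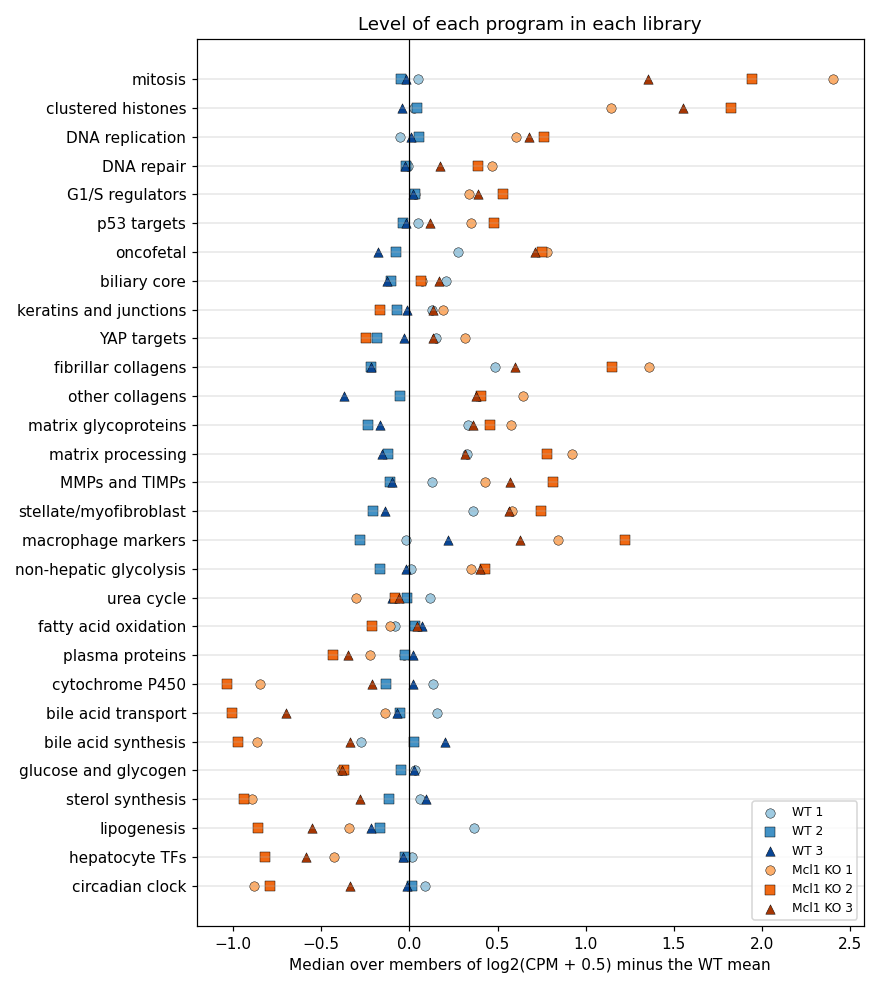
Level of each of 29 gene lists in each library, as the median over tested members of log2(CPM + 0.5) minus the mean of the WT libraries. Mitosis stood at 1.36 to 2.40 in the Mcl1Δhep libraries and within 0.05 of 0 in the WT libraries, and fibrillar collagens at 0.60 to 1.36 in the Mcl1Δhep libraries, with WT replicate 1 at 0.48. Hepatocyte transcription factors lay at −0.82 to −0.43.

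On the hepatocyte side, 10 of 26 tested transcription factors of hepatocyte identity and metabolism were lower and 0 higher, 9 of them in both fits, and 22 had a negative log2 fold change, with a median of −0.60. Onecut1, also called HNF6, had 65.6, 75.4, and 59.2 CPM in WT and 23.6, 7.22, and 9.20 CPM in Mcl1Δhep livers (log2 fold change −2.31 ± 0.42, edgeR adjusted p = 0.0048). The pioneer factors Foxa1 and Foxa2 fell by 1.63 and 1.22 on the log2 scale, and Cebpa, a factor of the differentiated hepatocyte, fell by 1.04. The nuclear receptor genes Rxra and Ppara, whose products control lipid and bile acid genes, fell by 0.87 and 0.83. All 6 passed in both fits. Hnf4a, a central regulator of the hepatocyte, had 662, 722, and 660 CPM in WT and 581, 438, and 468 CPM in Mcl1Δhep livers, without overlap and without passing the test (log2 fold change −0.46, edgeR adjusted p = 0.096). The small RNA fit and the fit with both covariates called 0 members, with medians of −0.40 and −0.50, and 0 were called with the Y-linked covariate without WT replicate 1.

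De novo lipogenesis turns glucose into fatty acids under the factors SREBP1c and ChREBP. Of 24 members 8 were lower, 3 higher, and 13 not called, 7 lower and 3 higher in both fits, with a median log2 fold change of −0.77, and −1.14 with the covariate. Without WT replicate 1 there were 4 lower and the median was −0.38, without Mcl1Δhep replicate 2 or 3 there were 3 and 5 lower, and in the small RNA fit 1 was lower, with a median of −0.27. Fasn, the fatty acid synthase, had 2781, 1340, and 1115 CPM in WT and 760, 456, and 582 CPM in Mcl1Δhep livers. WT replicate 1 was highest, and the log2 fold change was −1.54 ± 0.42 without and −2.31 ± 0.26 with the covariate (edgeR adjusted p = 0.025 and 0.0022). Srebf1, which encodes SREBP1, fell by 1.30 and Mlxipl, which encodes ChREBP, by 1.05, and their targets Elovl6, Acacb, and Acly fell by 1.75, 1.75, and 1.13. The 3 members that rose serve lipid uptake and storage. Cidec, a lipid droplet protein, had 0.765, 3.47, and 1.09 CPM in WT and 10.3, 8.99, and 9.61 CPM in Mcl1Δhep livers. Cd36, a fatty acid transporter, had 75.6, 27.8, and 37.9 CPM against 156, 151, and 151 CPM, and Plin2, which coats droplets, had 255, 318, and 332 CPM against 968, 538, and 444 CPM. The groups did not overlap in these 3 genes, and each passed in both fits.

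Sterol synthesis had fewer calls. Of 24 members 22 had a negative log2 fold change and 5 were lower, 2 of them in both fits, with a median of −0.66. Fdps, which makes farnesyl diphosphate, had 339, 360, and 554 CPM in WT and 113, 127, and 241 CPM in Mcl1Δhep livers (log2 fold change −1.38). Stard4, a sterol carrier, fell by 1.06 in the fit without and by 1.27 in the fit with the covariate. Without Mcl1Δhep replicate 3 there were 13 members lower, without WT replicate 2 there were 2, without Mcl1Δhep replicate 2 or WT replicate 3 there was 1, and the small RNA fit called 0. The sterol regulatory element was searched as TCACNCCAC on both strands. It was found in 1 of the 24 sterol synthesis promoters, in 3 of the 24 lipogenesis promoters (12.5%), and in 1.34% of all promoters. No window is shown for it.

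Genes of glucose and glycogen were lower for 6 of 19 members and higher for 0, 5 of them in both fits. Without WT replicate 1, 2, or 3 there were 3 lower, without Mcl1Δhep replicate 2 there were 2, and in the small RNA fit 0. Pklr, the pyruvate kinase of liver, had 316, 244, and 309 CPM in WT and 98.8, 71.1, and 146 CPM in Mcl1Δhep livers (log2 fold change −1.46). Pygl, the glycogen phosphorylase, fell by 0.78, Gbe1, the branching enzyme, by 0.90, and Slc2a2, the glucose transporter GLUT2, by 0.85. Of 15 glycolytic genes whose isoforms hepatocytes barely use 6 were higher and 0 lower, 4 in both fits, with 3 higher without WT replicate 2 and 2 in the small RNA fit. Pkm, the pyruvate kinase of other tissues and of tumors, had 23.2, 19.2, and 26.4 CPM in WT and 51.8, 77.5, and 82.1 CPM in Mcl1Δhep livers (log2 fold change 1.62). Slc16a3, a lactate exporter, rose by 2.45. Aldoa, the muscle aldolase, rose by 0.85 and was highest, at 279 CPM, in Mcl1Δhep replicate 3, the library with skeletal muscle transcripts. Pdk4, the kinase that shuts off pyruvate dehydrogenase, rose by 2.74, whereas the fatty acid oxidation list as a whole had 2 higher and 3 lower of 31 members. Fgf21, the fasting hormone of liver, was high in 1 library, with 15.7, 1.77, and 0.601 CPM in Mcl1Δhep livers against 0.178 to 0.528 CPM in WT, and passed without the covariate alone.

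Bile acid genes fell in part. All 14 synthesis genes had a negative log2 fold change, and 4 were lower, 2 of them in both fits, with 7 lower without Mcl1Δhep replicate 3, 2 without Mcl1Δhep replicate 2, WT replicate 2, or WT replicate 3, and 1 in the small RNA fit. The larger change was that of Cyp8b1, which sets the share of cholic acid, with 230, 314, and 427 CPM in WT and 42.9, 19, and 145 CPM in Mcl1Δhep livers (log2 fold change −2.23, not past the test with the covariate, edgeR adjusted p = 0.15), apart from that of the sex-biased Cyp7b1. Slc27a5, the ligase that conjugation needs, fell by 0.91 in the fit without and by 1.12 in the fit with the covariate. Cyp7a1, the rate-limiting enzyme of bile acid synthesis, ranged from 164 to 498 CPM in WT and from 84.6 to 374 CPM in Mcl1Δhep livers and was not called. Of 15 transport genes 6 were lower and 2 higher, 4 and 0 in both fits, with 3 lower when any of those last 3 libraries was left out and 0 in the small RNA fit. Slc10a1, the bile salt importer NTCP, had 852, 658, and 796 CPM in WT and 292, 169, and 359 CPM in Mcl1Δhep livers (log2 fold change −1.49, edgeR adjusted p = 0.0044). Slco2b1 fell by 1.10 and Abcg8, a sterol exporter into bile, by 1.38. Abcb11, the bile salt export pump, overlapped between the groups and was not called.

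Of 32 cytochrome P450 genes 9 were lower and 1 higher, 6 and 1 in both fits, with a median log2 fold change of −0.69. The 9 became 15 without Mcl1Δhep replicate 3, 5 without WT replicate 2, 3 without Mcl1Δhep replicate 2, and 0 in the small RNA fit. With the Y-linked covariate and without WT replicate 1, a fit that called 97 of all 15368 genes lower, 0 P450 genes were lower. That fit also called 0 lower among conjugation, pericentral, bile acid transport, and plasma protein genes. It called 5 lower in lipogenesis, 4 in sterol synthesis, 2 in glucose and glycogen, and 1 in bile acid synthesis. Cyp2e1 and Cyp1a2, both of pericentral hepatocytes, had 6899, 6719, and 7434 CPM and 879, 733, and 777 CPM in WT livers, and 1737, 1088, and 3767 CPM and 122, 140, and 441 CPM in Mcl1Δhep livers. Replicate 3 was the highest of the Mcl1Δhep libraries in both genes, and the groups did not overlap (log2 fold changes −1.68 and −1.76, past the test in both fits). The P450 that rose was Cyp2c55, with 7.28, 4.805, and 5.45 CPM in WT and 13.5, 16.9, and 39.5 CPM in Mcl1Δhep livers. Of 36 conjugation genes 5 were higher and 7 lower, and those higher were glutathione transferases. Without WT replicate 2 there were 0 higher and 4 lower, without Mcl1Δhep replicate 3 there were 3 higher, without Mcl1Δhep replicate 2 there were 4 lower, and the small RNA fit called 0. Gsta1 went from 0.105, 0.771, and 1.72 CPM to 7.74, 18.7, and 11.2 CPM (log2 fold change 3.81), and Gstm3 rose by 2.02, both in both fits. Of 24 pericentral genes 2 were higher and 4 lower, with 0 lower without Mcl1Δhep replicate 2 and 8 without Mcl1Δhep replicate 3, and of 22 periportal genes 1 was higher and 2 lower. Glul, the defining pericentral enzyme, had 1314 to 1672 CPM in WT and 547, 550, and 1393 CPM in Mcl1Δhep livers and was not called (edgeR adjusted p = 0.15), whereas Slc1a4, an amino acid transporter of the pericentral list, rose from 3.90 to 5.16 CPM to 13.4 to 36.7 CPM (log2 fold change 2.29).

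Genes of nitrogen metabolism were called near or below the background share of 20.2%. Of 14 urea cycle genes 0 were called in either direction, with a median log2 fold change of −0.02. Cps1, the first enzyme of the cycle, had 7295 to 8911 CPM in WT and 5302 to 8095 CPM in Mcl1Δhep livers. Ass1 did not pass although all Mcl1Δhep libraries, at 3037 to 3661 CPM, were above the WT libraries, at 1851 to 2349 CPM (edgeR adjusted p = 0.075). Of 33 genes of amino acid breakdown 2 were higher and 4 lower, 0 in total without WT replicate 2, with Acmsd of the tryptophan pathway rising by 1.65 and Prodh, the proline dehydrogenase, falling (log2 fold change −1.27). Albumin, Alb, the most abundant secreted protein, had 59840 to 117100 CPM in WT and 75630 to 108000 CPM in Mcl1Δhep livers. Of 48 plasma protein genes 11 were lower and 1 higher, 6 and 1 in both fits, among them C4b (log2 fold change −1.26), Hrg (−0.93), and Apoa2 (−0.81). Without Mcl1Δhep replicate 2 there were 4 lower, without WT replicate 2 there were 6, without Mcl1Δhep replicate 3 or WT replicate 3 there were 7, and in the small RNA fit 1. The gene that rose was Apoa4, an apolipoprotein that liver makes under lipid load, from 265, 109, and 227 CPM to 810, 2831, and 578 CPM (log2 fold change 2.81). Of the growth hormone and IGF axis 2 of 18 members were higher and 4 lower, with 1 lower without Mcl1Δhep replicate 2, WT replicate 2, or WT replicate 3. Ghr, the growth hormone receptor, had 635, 791, and 670 CPM in WT and 309, 235, and 366 CPM in Mcl1Δhep livers (log2 fold change −1.20 in both fits), and Egfr fell by 1.61 without the covariate.

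Growth hormone sets the sex bias of hepatocytes, in which males make major urinary proteins and females other P450s and sulfotransferases. Of the 12 largest falls of abundant protein-coding genes 9 are on the list of male-biased genes, among them Hsd3b5, Selenbp2, and Elovl3, and the other 3 were Mup14, Mup15, and Mup18. The Mup genes are near-identical copies whose reads can be split. Hsd3b5, a steroid reductase, had 14.4 CPM in WT replicate 1, 419 and 493 CPM in WT replicates 2 and 3, and 0.290, 0.122, and 0.791 CPM in Mcl1Δhep livers. Its levels in the Mcl1Δhep livers were below those of the WT library without Y-linked expression as well, and the log2 fold change was −9.43 without and −5.42 with the covariate, past the test in both fits. Selenbp2 had 6.20, 832, and 900 CPM in WT and 1.63, 1.25, and 5.41 CPM in Mcl1Δhep livers, and its log2 fold change went from −7.69 to −2.80 with the covariate (edgeR adjusted p = 0.22). Mup3, an abundant Mup gene, had 2936, 10910, and 9400 CPM in WT and 622, 495, and 1561 CPM in Mcl1Δhep livers and passed in both fits. Of 36 male-biased genes 25 were lower without and 5 with the covariate, and 8 without Mcl1Δhep replicate 2, 11 without WT replicate 2, 12 without WT replicate 3, and 0 in the small RNA fit.

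Female-biased genes were rarely called without the covariate. Of 32 tested members 2 were higher and 0 lower without the covariate, and 3 were higher and 10 lower with it, with medians of 0.15 and −1.03. Without WT replicate 1 there were 16 higher, and without Mcl1Δhep replicate 1 or 2 there was 1. The count was 0 without Mcl1Δhep replicate 3, the library with pancreatic and muscle transcripts, and without WT replicate 2 or 3. Cyp2b13, a P450, had 171 CPM in WT replicate 1, 0 CPM in replicates 2 and 3, and 20.1, 7.07, and 15.8 CPM in Mcl1Δhep livers (with the covariate log2 fold change −3.48). The Mcl1Δhep livers thus lay between WT libraries without and with Y-linked expression. In the 3 libraries of Sting1 KO mice, which have an intact Mcl1 gene and no Y-linked expression, Cyp2b13 had 191, 255, and 117 CPM. In 22 of the 32 female-biased genes all 3 Mcl1Δhep libraries were below WT replicate 1, and in 19 of these they were also below all 3 Sting1 KO libraries. In 5 they were above WT replicate 1, and in 2 of these also above all 3 Sting1 KO libraries. Male-biased genes also fell below WT replicate 1, in 19 of 36, and in 15 of these also below all Sting1 KO libraries. In 8 of the 36 all Mcl1Δhep libraries were above WT replicate 1, and in 4 of these also above all Sting1 KO libraries. The same counts were not made over all tested genes, and WT replicate 1 is 1 library. A1bg and Hao2 were higher with the covariate alone, with 84.7 and 20.8 CPM in WT replicate 1 and 713 to 3721 CPM and 43.8 to 72.5 CPM in Mcl1Δhep livers. The Sting1 KO libraries, at 1039 to 1313 CPM and 44.9 to 64.1 CPM, overlapped the Mcl1Δhep libraries in both genes.

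**Figure D5:**
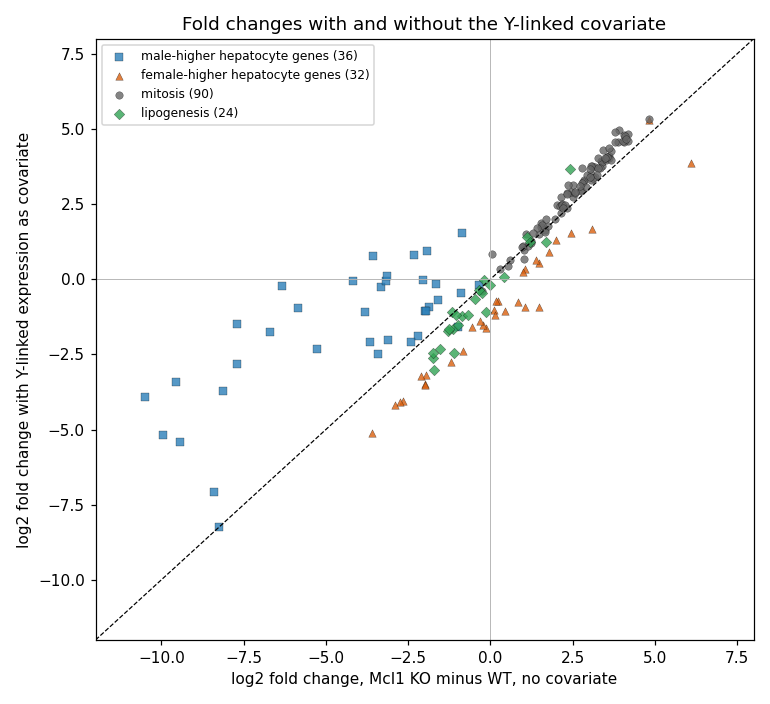
Log2 fold change of each member of 4 gene lists without (x) and with (y) Y-linked expression as a covariate, where the dashed line marks equal values. Male-biased genes lay above the line at strongly negative x, female-biased genes below it, and mitosis genes along it with medians of 2.77 and 3.13.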

How the data were processed

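For each library the authors deposited unnormalized counts of reads assigned to Ensembl genes. The labels' processing notes name STAR, featureCounts, and GRCm39, without versions or a strand setting, so overlapping genes may share reads. The labels name the RNeasy Plus Mini Kit for extraction, and the study's text names another. Groups were taken from the genotype on the labels. The members and gene lists were chosen with earlier results of these data known.

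The quasi-likelihood test of edgeR 4.0.16 in R 4.3.3 (glmQLFit, glmQLFTest) was applied after filterByExpr had been run by genotype, with TMM scaling. A prior count of 2 entered the fold changes and not the CPM values. Each SE is the size of the log2 fold change divided by the square root of the test's F statistic. The spread behind it was estimated from all 12 libraries. The 12 libraries entered 1 model without covariate, the contrast was Mcl1Δhep minus WT, and p-values were adjusted by the Benjamini-Hochberg method over the 15070 of 40551 genes tested, with a threshold of 0.05. With n of 3 per group, p-values measure only the spread between these libraries, which may be technical in part. The 29124473 to 45266387 counts per library limit the precision of genes with few counts, and values at 0 CPM are at the limit of this depth. Y-linked expression was called present where the summed Y-linked genes exceeded 5 CPM. Gene names and promoter windows are those of GENCODE vM39, which holds 39533 of the identifiers, and the 1018 others took at most 0.101% of a library's counts.

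Named are Mcl1, the 12 strongest rises and the 12 strongest falls among called protein-coding genes of at least 10 CPM on average without overlap between groups, and in each list the called members with the largest rise and fall and the member with the highest TPM. Other members were named after their values were seen. Some genes that this rule names are not reported here. No set test was run, and lists are described by counts and medians. Alternatives were DESeq2 1.42.0, other scalings, no filter, the 6 libraries alone, covariates, the replicate number as a block, and omission of single libraries, 20 fits in all, of which those with the Y-linked covariate and a library left out, and with both covariates, were added after the data were seen. Some of the fits were run on simulated counts with known changes and the same spread for all genes. The simulation held no effect of sex, small structured RNAs, or other tissue, so it cannot speak to these. Deviations of same-numbered Mcl1Δhep and WT libraries from their group means had correlations of 0.133, −0.025, and 0.018. Pairs of unlike number had −0.108 to 0.127, so these values do not settle whether the numbers pair the livers. The fit without covariate took the livers as unpaired. Chi-square per degree of freedom between pairs of one genotype lay at 79.6 to 307, so no pair agreed within sampling noise. Tables were joined with pandas 2.3.3 and numpy 2.4.6 in Python 3.11.15, and plots drawn with matplotlib 3.10.9.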

Additional observations from a re-analysis of the deposited data

How the results depend on the processing

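Sex and genotype cannot be told apart in most of the contrast, since of the 6 libraries compared WT replicates 2 and 3 alone expressed Y-linked genes, and 3 livers per group limit every call. Against 3050 genes called in the fit without covariate (1629 higher, 1421 lower), the 6 libraries alone gave 1178 (843 higher, 335 lower), the Y-linked covariate 1531 (893 and 638), the covariate of small structured RNAs 407 (338 and 69), and both covariates together, added after the data were seen, 212 (187 and 25). Libraries without Y-linked expression, with 1 WT library assumed to vary like the other groups, gave 4 (1 and 3), and 2674 genes at an unadjusted p under 0.05. DESeq2 called 3884, median-ratio scaling 3053, scaling from protein-coding genes 3079, no filter 2620, and the replicate block 2591. Leaving out 1 library gave 1233 to 5232 genes (729 to 2503 higher, 417 to 2729 lower), lowest without WT replicate 2, close to it without Mcl1Δhep replicate 2 (1238), 1596 without WT replicate 3, and highest without Mcl1Δhep replicate 1. With the Y-linked covariate as well, also added after the data were seen, omitting Mcl1Δhep replicate 1, 2, or 3 gave 4253 (2008 and 2245), 685 (460 and 225), and 1754 (990 and 764), and omitting WT replicate 1 gave 415 (318 and 97). The cause was not tested.

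Of the 130 named genes called without covariate, 128 kept their call with DESeq2, which gave an adjusted p for 128, 130 with either other scaling, 108 with the Y-linked covariate, 43 with the covariate of small structured RNAs, and 124 with the replicate block. In libraries without Y-linked expression 1 kept its call, 127 lost it, and 2 turned, with both covariates 30 kept it, and with the 6 libraries alone 29 lost it. It was kept by 95 without Mcl1Δhep replicate 2, 96 without WT replicate 2, and 102 to 122 without another library, and with the Y-linked covariate as well by 52 without WT replicate 1 and 75 to 111 without another. Directions turned as follows, as log2 fold changes. In libraries without Y-linked expression Mcm10 was at 0.089, Lama3 at 0.016, and Epcam at −0.27. With the Y-linked covariate Sox9 was at 0.0080 and Epcam at −0.033, and with a library left out as well Sox9 was at 0.020, 0.013, and 0.79, Epcam at −0.35, and Tpm2 at −0.073. With small structured RNAs as a covariate Spp1 was at 0.14, Cps1 at 0.13, and Cyp2b13 at 0.48. With both covariates Krt19 was at −0.033, Tpm2 at −0.15, and Cps1 at 0.17. Over the fits that left out 1 library Krt7 ranged from −0.58 to 0.18, Sox9 from −0.28 to 0.026, Spp1 from −0.30 to 0.12, Alb from −0.16 to 0.33, and Cyp2b13 from −2.57 to 8.02, and the highest values of Sox9, Alb, and Cyp2b13 were those without WT replicate 1. Alb was at −0.18 with the Y-linked covariate, at −0.34, −0.072, and −0.14 with Mcl1Δhep replicate 1, 2, or 3 left out as well, and at −0.40 in libraries without Y-linked expression.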

Other observations

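Several tubulin and annexin genes rose. Of 18 tubulin genes 7 were higher and 1 lower, the 7 also with the Y-linked covariate and 2 in the small RNA fit, led by Tuba8, with 1.40, 2.05, and 2.44 CPM in WT and 11.4, 21.3, and 18.6 CPM in Mcl1Δhep livers, and Tubb2a, with 35.2, 13.6, and 28.8 CPM against 213, 236, and 88.2 CPM. Of 19 annexin and S100 genes 11 were higher and 0 lower, 4 in both fits, with 6 without Mcl1Δhep replicate 2 or WT replicate 3 and 1 in the small RNA fit. Anxa2, a membrane-binding protein that is low in resting hepatocytes, had 19.7, 13.4, and 13.9 CPM in WT and 65.8, 151, and 55.6 CPM in Mcl1Δhep livers (log2 fold change 2.53). Tnfrsf12a, the TWEAK receptor that liver turns on after injury, had 3.88, 3.71, and 4.06 CPM against 30.3, 49.2, and 20.7 CPM (3.09). The uncharacterized gene 2010003K11Rik was also among the 12 largest rises.

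Calls among stress genes differed between lists. Of 24 genes of the NRF2 and antioxidant list 6 were higher and 3 lower (3 higher without WT replicate 2), with Hmox1, the heme oxygenase, at 20.8, 13.8, and 24.8 CPM in WT and 103, 91.7, and 73.9 CPM in Mcl1Δhep livers, and Cat, the peroxisomal catalase, falling by 1.12 on the log2 scale, both in both fits. Of 24 genes of the integrated stress response 4 were higher (2 without Mcl1Δhep replicate 2, WT replicate 1, or WT replicate 3), led by Atf3 (log2 fold change 2.87), and the median of the list was −0.06. Of all tested genes 10.8% were higher. Mt2, a metallothionein, had 4.67, 0.949, and 2.18 CPM against 23.8, 106, and 24.2 CPM. Of 22 immediate early genes 8 were higher and 0 lower, with 4 without WT replicate 2 and 5 without WT replicate 3. Of 18 clock genes 5 were lower and 0 higher, 2 of them in both fits. There were 8 lower without Mcl1Δhep replicate 3, 3 without WT replicate 1, 2 without WT replicate 2 or 3, and 1 without Mcl1Δhep replicate 2. The small RNA fit called 1 NRF2 and antioxidant gene, 1 integrated stress gene, 4 immediate early genes, and 0 clock genes higher. It called 0 lower in any of these lists. Hlf, a clock output factor, had 25.7 to 32.1 CPM in WT and 9.33 to 14.6 CPM in Mcl1Δhep livers. The time of day at which livers were taken is not on the labels.

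Of 25 macrophage markers 15 were higher, 2 in the small RNA fit, among them Trem2 and Gpnmb of lipid-associated macrophages (log2 fold changes 3.57 and 5.10), with Clec7a (3.02) and Lgals3 (2.96) among the 12 largest rises. Of 10 neutrophil markers 6, of 20 lymphocyte markers 5, and of 24 endothelial markers 2 were higher, and 2, 0, and 2 of them were higher in both fits. The endothelial share was below the 10.8% of all tested genes, and the small RNA fit called 0 neutrophil, lymphocyte, or endothelial markers. Without Mcl1Δhep replicate 2 there were 2 neutrophil and 0 lymphocyte markers higher. Without WT replicate 1, 2, or 3 there were 3, 3, and 4 neutrophil and 3, 0, and 3 lymphocyte markers, and without Mcl1Δhep replicate 3 there were 2 lymphocyte markers. Transcripts of the mitochondrial genome took 1.12 to 1.42% of counts in WT libraries and 1.63, 0.580, and 0.565% in Mcl1Δhep replicates 1, 2, and 3, and the 81 ribosomal protein genes had medians 0.19 log2 units below and 0.63 and 0.36 above the WT mean in the same order, with 1 of 81 called. Without Mcl1Δhep replicate 1, 50 of the 81 were higher and 7 of 8 mitochondrial genes were lower. In both measures replicate 1 stood apart from replicates 2 and 3, as it did in small structured RNAs.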
